A study of Microhyla fissipes with 12 samples.

Results

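Of 468578 unigenes measured in frog dorsal muscle, 290 were abundant in every library, between rank 101 and rank 1713 by mean FPKM. As deposited, their values stayed within 2.5-fold from the first sampled stage of metamorphosis to the last. They were taken from the deposited table by 3 limits: a value of at least 50 FPKM in each of the 12 libraries, a lowest value under 1000 FPKM, and a highest value at most 2.5 times the lowest. FPKM is the number of mapped fragments scaled for the length of the unigene and the size of the library, and a unigene is a transcript of a catalogue assembled from the reads. The 290 were thus chosen by their FPKM values, so the level and the evenness of the set are given here as a description and not as a finding.

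Dorsal muscle of the frog Microhyla fissipes was sampled at stages 36, 40, 43 and 45, named S36, S40, S43 and S45, with 3 libraries per stage that the series calls biological replicates. All tadpoles were fed spirulina powder, and no treatment, strain or genotype is named. The number of animals behind a library is not stated, so p-values speak only of how these libraries spread, part of which may be technical. S45 replicates 2 and 3 differed by little more than the noise estimated from low values and enter as their mean, as 1 sample. That leaves n = 2 at S45 in the stage means and the main limma tests. Alternatives with 12 separate libraries have n = 3 there, and those without S45 replicate 1 have n = 1. The selection of the 290, values and shifts over all 12 libraries, and counts of libraries that did not overlap keep S45 replicates 2 and 3 separate.

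Frog metamorphosis is driven by thyroid hormone. In the trunk, larval muscle is remodelled into the muscle of the juvenile while the tail and its muscle are lost, and many muscle transcripts are replaced by adult forms in that period. Transcripts that every cell needs, such as those for ribosomes, energy metabolism and the cytoskeleton, are commonly sought as a steady reference in such series, because bulk expression is always read against something assumed to hold still. In bulk tissue, fewer cells of a type and less RNA per cell cannot be told apart.

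The table pairs no unigene with a gene name, so the roles of the 290 and the markers of muscle and other cells are not reported, and unigenes are called by the IDs of the table. A companion file of unigene sequences was not analysed here. The first part of an ID is taken here as an assembly cluster, a group of contigs, and the number after the point as the unigene. The lowest total FPKM was 1219980, in S36 replicate 2, and the highest, in S43 replicate 3, was 1688310, or 1.38 times as much. Read depth is not part of the table and is unknown, so no counting interval can be given. Although of different stages, S36 replicate 3 and S40 replicate 1 were the next closest pair of libraries after the S45 pair. Values without both are given for some of the results.

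The 290 members were a minority of the unigenes at their level. In all, 827 unigenes reached 50 FPKM in every library, and 738 of these had a lowest value under 1000. The 290 are 39.3% of those 738, and the other 448 had a highest value above 2.5 times the lowest. The mean FPKM of a member over the 12 libraries ranged from 66.7 to 1427 with a median of 151, and 67 members had a mean under 100, 151 from 100 to 300, 59 from 300 to 1000 and 13 of 1000 or more. Ranked by mean FPKM among all unigenes, the members lay between rank 101 and rank 1713. The plot of lowest value against spread shows them as a block below a cloud of more variable unigenes.

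**Figure D1:**
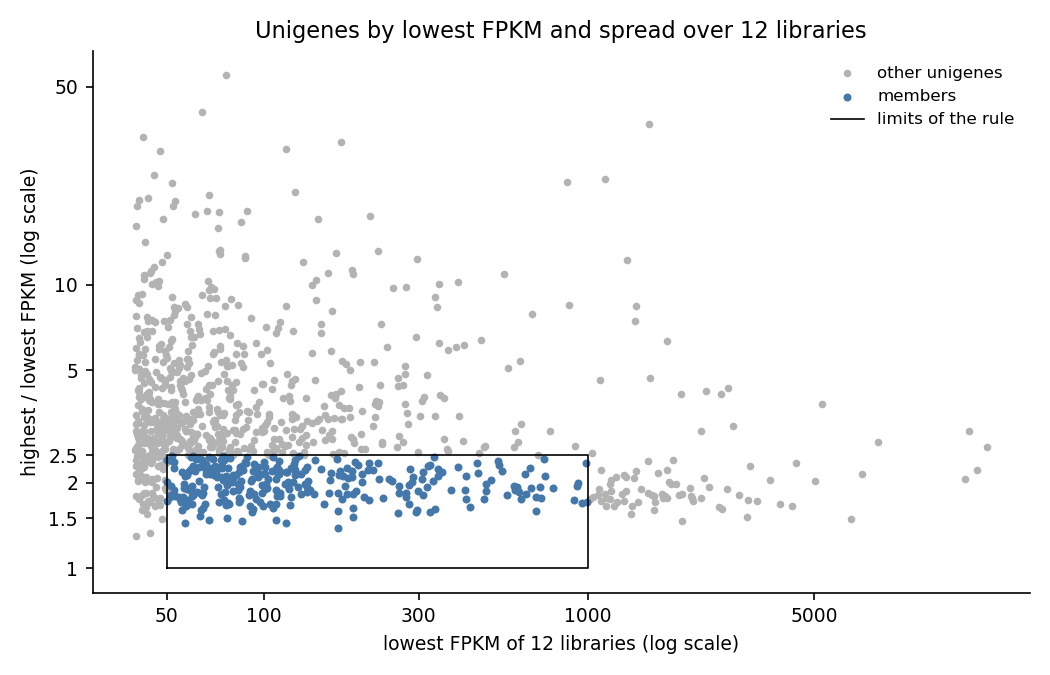
Each point is 1 of the 1055 unigenes with at least 40 FPKM in every library. The x axis is the lowest FPKM of the 12 libraries and the y axis the highest divided by the lowest, both on log scales. The 290 members (blue) fill the box that the rule draws from 50 to 1000 FPKM and up to 2.5, none of them lies below 1.38, and the 448 unigenes of the same level above the box reach far higher ratios.

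The ratio of highest to lowest FPKM had a median of 2.01 among members and quartiles of 1.81 and 2.22. Only 6 members stayed within a ratio of 1.5, while 137 lay between 1.5 and 2 and 147 between 2 and 2.5. The coefficient of variation over the 12 libraries ran from 9.94% to 33.8% with a median of 21.3%. In 10 members every library was within 25% of the member's median, and in 133 members at least 10 libraries were.

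The limits cut through a continuum of values. Just inside the limit on the ratio were Cluster-199519.122960 with 2.490 and Cluster-199519.121706 with 2.488, and just outside were Cluster-199519.115674 and Cluster-199519.117786, both with 2.508. The lowest value was 50.15 FPKM in Cluster-199519.136710 and 50.18 in Cluster-199519.115492, against 49.94 in Cluster-199519.110516 and 49.8 in Cluster-199519.120626, which were left out. At the upper end it was 992.87 in Cluster-199519.120761 and 987.96 in Cluster-199519.121578, against 1012 in Cluster-199519.120088 and 1033.7 in Cluster-199519.118715, which lay above the ceiling. The unigenes on either side of each limit differ by less than their own spread.

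The most even member was Cluster-199519.118339. It had 227, 169 and 215 FPKM in the S36 libraries, 190.5, 193 and 189.8 at S40, 204, 196 and 233 at S43, and 202, 179 and 176 at S45, a ratio of 1.38. Its lowest and highest libraries were S36 replicate 2 and S43 replicate 3, the libraries with the lowest and the highest total FPKM of the series. The S36 and S45 libraries overlapped with those of every other stage, while all S43 libraries lay just above the S40 libraries.

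The next most even member was Cluster-199519.121892 with a ratio of 1.44. It had 161, 128 and 168 FPKM at S36, 157, 137 and 117 at S40, 158, 117 and 144 at S43, and 119, 130.3 and 129.6 at S45. Cluster-199519.129282, with a ratio of 1.45, was a low member: 63.1, 67.2 and 73.0 FPKM at S36, 57.2, 68.9 and 74.8 at S40, 57.9, 80.9 and 82.6 at S43, and 61.4, 73.1 and 73.6 at S45. In both, the libraries of the 4 stages overlapped, and in Cluster-199519.121892 no S45 library was above 130.3.

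The other 3 members within a ratio of 1.5 had their S45 libraries in the lower part of their range. Cluster-199519.119662 ranged from 85.6 to 125 FPKM with a median of 101, and its S45 libraries had 95.0, 95.0 and 88.3. Cluster-199519.122280 ranged from 67.4 to 99.5 with a median of 81.4, and its S45 libraries had 68.6, 68.0 and 70.1, at the bottom of that range together with S36 replicate 2 and S43 replicate 1. Cluster-199519.125068 ranged from 109 to 162 with a median of 131, with 109, 113 and 117 at S45 below 154, 162 and 139 at S36. Its log2 difference from S36 to S45 was -0.43 ± 0.27 (SE; limma adjusted p = 0.37), which did not pass.

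**Figure D2:**
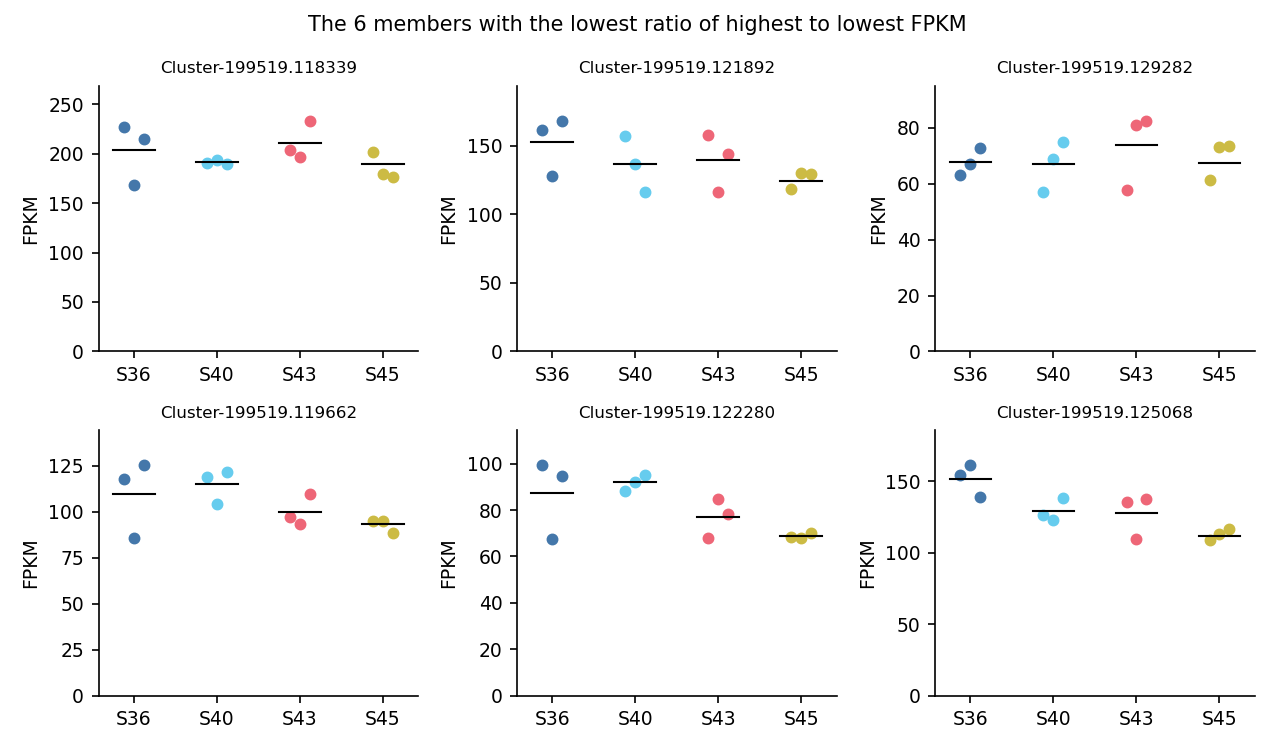
FPKM (y axis, from 0) of the 6 members with the lowest ratio of highest to lowest value, by stage (x axis). Each point is a library, and each bar is the stage mean, in which S45 replicates 2 and 3 count as 1 sample. Most stages overlap in height, the S45 libraries of Cluster-199519.122280 and Cluster-199519.125068 lie low in their range, and the whole range of Cluster-199519.118339 is 169 to 233 FPKM.

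The 4 members with the highest mean had at least 924 FPKM in every library. Cluster-199519.121578, the highest of them with a mean of 1427, had 1409, 1131 and 1218 FPKM at S36, 1068, 1301 and 1197 at S40, 1795, 988 and 2331 at S43, and 1658, 1509 and 1519 at S45. Its lowest and highest values both came from S43, so its spread within that stage was as wide as its spread over all stages. Cluster-199519.120575 ran from 924 to 1802 with a median of 1218, and Cluster-199519.118955 from 932 to 1864 with a median of 1188. Both were lowest in S40 replicate 3 and highest in S43 replicate 3. Cluster-199519.120761 ran from 993 to 1696 with a median of 1174, with 1696, 1189 and 1414 at S36 against 995, 1018 and 1041 at S45. Its S36 and S45 libraries did not overlap, but the log2 difference of -0.49 ± 0.23 did not pass (limma adjusted p = 0.24).

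No member differed among stages by the test that ran across all unigenes. The moderated F test of limma, adjusted by the Benjamini-Hochberg method, called 0 of the 290 members, against 1214 of the 123813 unigenes tested, or 0.981%, and 37 of the 448 more variable unigenes of the same level. An unadjusted limma p under 0.05 was found for 18 members, or 6.21%, against 18.8% of all tested unigenes. The selection bears directly on these counts, because it allows a log2 difference of at most 1.32. Between S36 and S45 the smallest test statistic that passed was 5.05, which at the median standard error of the members, 0.31, asks for a difference of 1.57. For 246 of the 290 members the difference needed was larger than the rule permits, so nothing is read from the absence of calls.

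The members' spread within stages and the spread of their stage means are given as a description, since the limit on the ratio caps both. The residual SD of log2(FPKM + 1) within stages had a median of 0.26 among members and ran from 0.09 to 0.52, and the SD of the 4 stage means had a median of 0.22. In 182 of the 290 members the former was larger. A stage mean averages samples and still holds part of the spread within stages, so these SDs are not like measures. The variance that limma used, which borrows from all unigenes of like abundance, exceeded a member's own in 279 of 290, with a median SD of 0.34. Choosing even unigenes favours a small variance of their own, so this count too only describes the set.

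From S36 to S40, members had slightly lower values on balance. The median log2 difference was -0.08 on the log2(FPKM + 1) scale, and 281 of the 290 members lay within 0.5 of no difference. Lower means at S40 were found for 189 and higher ones for 101. limma called 0 of the 290, against 0.00162% of all tested unigenes, and 1 member had an unadjusted limma p under 0.05, against 3.14% of tested unigenes. In 24 members every S40 library lay below every S36 library, or 8.28%, where 2.07% of all tested unigenes did, and in 6 every S40 library lay above, where 6.21% did. Among the 448 more variable unigenes of the same level, 4.24% lay below in this way and 8.93% above. Without S36 replicate 1 the median was -0.01 and without S36 replicate 2 it was -0.18, so 1 library moves this difference by about its own size.

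From S40 to S43 the direction was the opposite, with a median log2 difference of 0.13, 181 members higher and 109 lower. That balance came with 1 library: without S43 replicate 3 the median was 0.01, with 145 members higher and 145 lower. With every library brought to the same total FPKM the balance turned, to a median of -0.04 with 133 higher and 157 lower. limma called 0 members, against 0.319% of all tested unigenes, and 25 members, or 8.62%, had an unadjusted limma p under 0.05, against 14.8%. Every S43 library lay above every S40 library in 50 members, or 17.2%, against 6.73% of tested unigenes, and below in 18, or 6.21%, against 10.4%. Of the 448 more variable unigenes of the same level, 20.3% lay above and 13.4% below.

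From S43 to S45 the members were lower on balance, by a median log2 difference of -0.19. The mean was lower at S45 in 221 and higher in 69, and without S43 replicate 3 the median was -0.12 with 184 lower and 106 higher. limma called 0 members, against 0.928% of all tested unigenes, and 12, or 4.14%, had an unadjusted limma p under 0.05, against 15.5%. All S45 libraries lay below all S43 libraries in 82 members, or 28.3%, against 2.47% of tested unigenes, and above in 12, or 4.14%, against 16.9%. For the 448 more variable unigenes of the same level these shares were 22.1% below and 10.5% above.

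Between the first and the last stage the median log2 difference of members was -0.18, with 194 lower and 96 higher at S45, and 210 of 290 were within 0.5 of no difference. Without S36 replicate 1 the median was -0.11, with 183 lower and 107 higher, and without S36 replicate 2 it was -0.30, with 216 lower and 74 higher. The median of all 123813 tested unigenes was 0.56, so the bulk of these lay higher at S45 while the members did not. Members were chosen for evenness on these same values, so this contrast describes the set and is not evidence about it. From 68885 to 76510 unigenes had at least 1 FPKM in an S36 library, and from 105621 to 140066 in an S45 library. Testing asked for 1 FPKM in only 3 libraries, so unigenes reaching it at S45 alone could enter. Their part in the median and shares of tested unigenes, in each comparison with S45, was not tested. limma called 0 members, against 0.709% of all tested unigenes, and 41 members, or 14.1%, had an unadjusted limma p under 0.05, against 21.5%. Of these 41, 8 were higher and 33 lower at S45, or 2.76% and 11.4% of members, where 19.6% and 1.92% of tested unigenes were. By the same threshold, 129 of the 448 more variable unigenes were higher, or 28.8%, and 81 lower, or 18.1%. In 98 members, or 33.8%, the S36 libraries all lay above the S45 libraries, against 4.7% of tested unigenes, and in 36, or 12.4%, all lay below them, against 27.3%. Among the 448 more variable unigenes of the same level these numbers were 110, or 24.6%, and 193, or 43.1%. The share of all unigenes called rests on single libraries too: the 878 called between S36 and S45 became 7888 without S43 replicate 3, and ran from 125 to 7888 over 23 alternatives. Comparisons between stages share libraries, so the balance at successive steps is not independent.

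The differences that remained inside the limit can be seen in the members at either end of the S36 to S45 order, which were chosen after their values were seen. Cluster-199519.128141 had 87.3, 98.8 and 111 FPKM at S36, 133, 151 and 116 at S40, 101, 84.3 and 144 at S43, and 189.98, 188 and 192 at S45. The S45 libraries lay close together above all others, and the mean went from 99.1 ± 12.01 (SD, n = 3) to 189.9 ± 0.1 (SD, n = 2), a log2 difference of 0.94 ± 0.32 (SE; limma adjusted p = 0.14). Cluster-199519.121348 had 101, 60.3 and 64.9 FPKM at S36 and 149.7, 120.05 and 118 at S45, with no overlap and a log2 difference of 0.85 ± 0.34 (limma adjusted p = 0.19).

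At the lower end, Cluster-199519.121297 had 266, 213 and 236 FPKM at S36, 218, 192 and 153 at S40, 175, 149.9 and 197 at S43, and 111, 129.6 and 128 at S45. Its S45 libraries were below all 9 others, and its log2 difference was -0.98 ± 0.28 (limma adjusted p = 0.11). Cluster-199519.121200 had 219, 195 and 139.5 FPKM at S36 and 88.3, 99.1 and 93.0 at S45, with a log2 difference of -0.97 ± 0.31 (limma adjusted p = 0.13). For the former the adjusted p ran from 0.034 to 0.43 over 23 alternatives and was under 0.05 in 4 of them. None of the other 3 passed in any alternative.

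**Figure D3:**
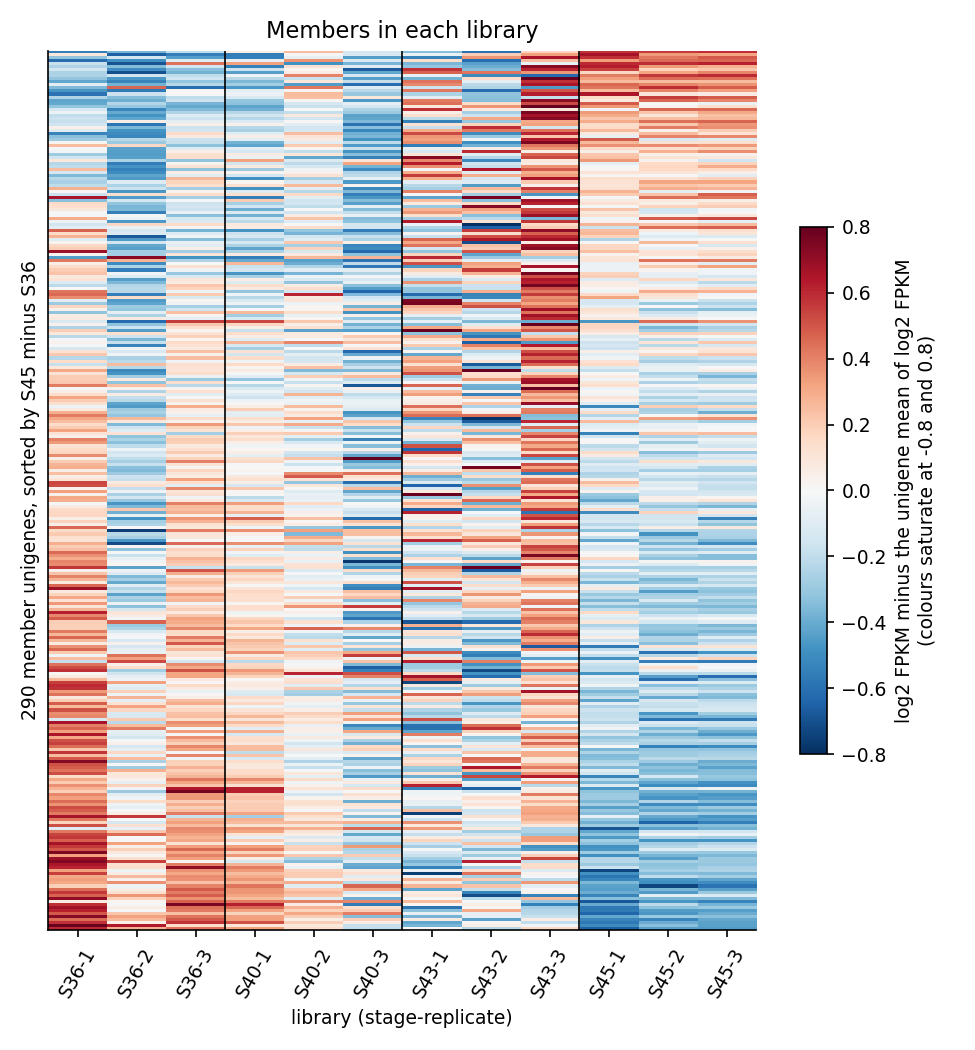
Rows are the 290 members, sorted by the log2 difference between S45 and S36, and columns are the 12 libraries. Colour is log2 FPKM minus the member's mean over libraries (red higher, blue lower, saturated at -0.8 and 0.8), so the sorting itself sets the contrast between the S36 and S45 columns. S43 replicate 3 is red through most rows and S43 replicates 1 and 2 vary from row to row.

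Members that set 1 stage apart from every other library were few, apart from those low at S45. All 3 S45 libraries lay below the other 9 in 35 members, or 12.1%, where 0.316% of all tested unigenes did, and above them in 5 members, or 1.72%, where 7.08% did. For S43 the numbers were 14 above, or 4.83% against 0.852%, and 2 below, or 0.69% against 3.4%. S36 stood above the rest in 4 members, against 0.209% of tested unigenes, and below in 0, against 1.16%. S40 stood above in 1 member and below in 2, where 0.482% and 0.179% of tested unigenes did. Of the 448 more variable unigenes of the same level, 45 had all S45 libraries below the other 9, and 33 had them above. For S43 the numbers among these 448 were 30 above and 8 below, for S36 5 above and 25 below, and for S40 0 of each. The share low at S45 was thus only slightly smaller among the 448 than among the members. The limit on the ratio takes out wide gaps in either direction, so the shares of the members describe the set and are not evidence about it. Close libraries also bear on these counts. S36 replicate 3 and S40 replicate 1 had an SD of the log2 ratio over members of 0.12, which makes it harder for S36 or S40 to stand apart. S45 replicates 2 and 3, kept separate here, had one of 0.08, which makes it easier for S45. Counts without these pairs are not given.

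For each such pattern the member with the widest gap shows its size, and these were chosen after their values were seen. Cluster-199519.122749 had 352, 399 and 410.3 FPKM at S43 and between 187 and 256 elsewhere, with means of 209 ± 26.9 at S36, 223 ± 14.0 at S40, 387 ± 31.1 at S43 (SD, n = 3 each) and 235 ± 26.1 at S45 (SD, n = 2). Its lowest S43 library was 1.37 times its highest other library, and the F test did not pass (limma adjusted p = 0.13, unadjusted p = 0.0083). Cluster-199519.119765 had the opposite shape at a level near 1000 FPKM: 1024, 1059 and 1044 at S36, 1064, 1018 and 977 at S40, 772, 692 and 848 at S43, and 1009, 1097 and 1098 at S45. Its 9 libraries outside S43 stayed between 977 and 1098, and its 3 S43 libraries were the lowest.

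Cluster-199519.117374 was low at S45, with 79.1, 64.1 and 70.7 FPKM against values from 99.3 to 147 in the other 9 libraries. Cluster-199519.120123 was high at S36, with 263, 246 and 226 FPKM against 136 to 194 elsewhere, and its means after S36 were 173 ± 31.9 at S40, 155 ± 8.46 at S43 and 159.6 ± 21.7 at S45. Cluster-199519.120056 was low at S40, with 283, 277 and 248 FPKM, just under its next lowest library at 316. Cluster-199519.120655 was high at S40, with 195, 211 and 191 FPKM, but S45 replicate 3 had 187, so that gap was 1.02-fold.

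**Figure D4:**
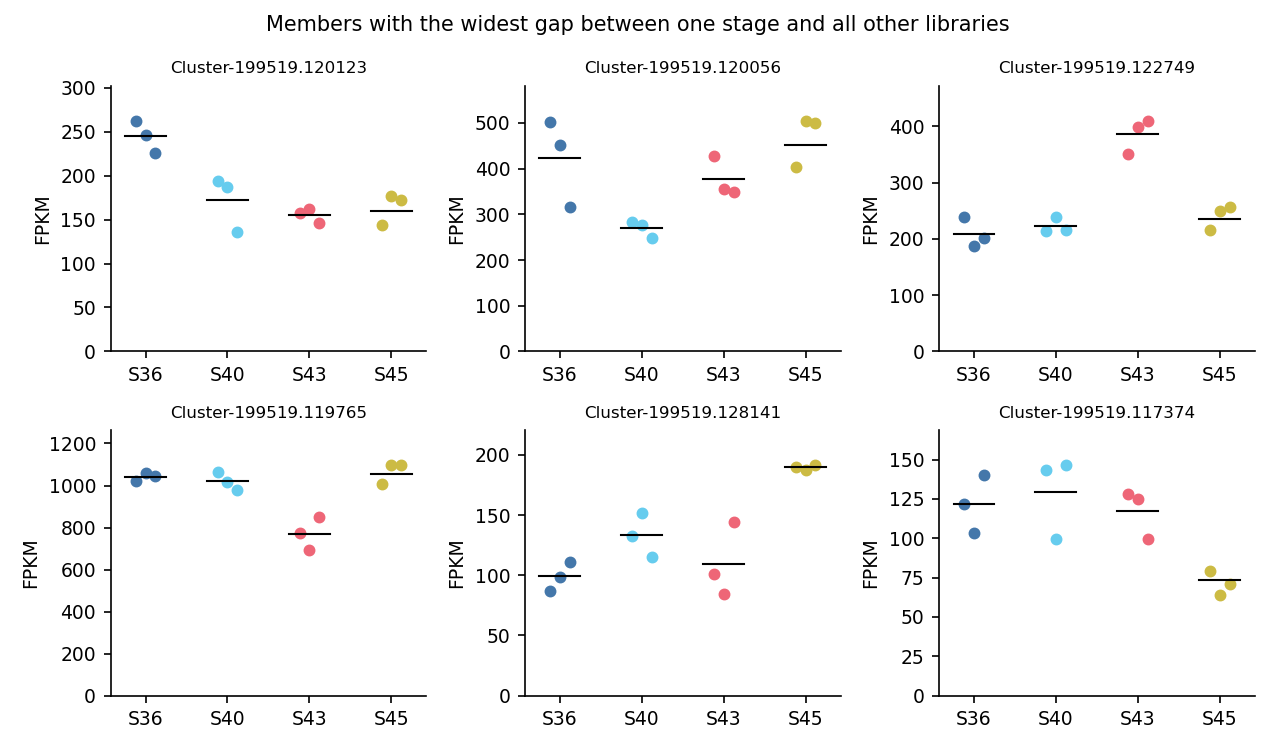
FPKM (y axis, from 0) by stage (x axis) for the member with the widest gap of each kind: S36 above, S40 below, S43 above, S43 below, S45 above and S45 below all other libraries, in reading order. Each point is a library, and each bar is the stage mean, in which S45 replicates 2 and 3 count as 1 sample. The S43 libraries of Cluster-199519.122749 sit at 352 to 410.3 FPKM, above its other libraries, and the S45 libraries of Cluster-199519.117374 sit at 64.1 to 79.1 FPKM.

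By stage mean, the highest value of a member was at S43 for 112, at S36 for 100, at S45 for 41 and at S40 for 37. The lowest was at S45 for 139, at S40 for 71, at S36 for 42 and at S43 for 38. Without S43 replicate 3 the number highest at S43 was 75 and that at S36 115. Without S36 replicate 2 these were 92 and 140, so the leading stage changed with either library. S45 had the most lowest means in every case examined, with 121 to 148 when S43 replicate 3, S45 replicate 1, S36 replicate 1, S36 replicate 2, or both S36 replicate 3 and S40 replicate 1 were left out.

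The extremes were unevenly divided over the libraries. S43 replicate 3 held the highest value of 105 members, or 36.2%, and S36 replicate 1 that of 68, or 23.4%, while S40 replicate 1 held that of none. The lowest value was in S40 replicate 3 for 62 members and in S36 replicate 2 for 55. The median FPKM of the 290 members was 168.5, 137 and 163 in the S36 libraries, 155, 154 and 135 at S40, 153, 146 and 178 at S43, and 145, 142 and 145 at S45.

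Part of the spread was common to the members, and in some libraries other sets of unigenes shared its direction. Each member's log2 FPKM was taken relative to its own mean, and the median over members was 0.30 in S43 replicate 3, 0.20 in S36 replicate 1 and 0.14 in S36 replicate 3, and -0.16 in S40 replicate 3, -0.15 in S45 replicate 3 and -0.14 in S36 replicate 2 and S45 replicate 2. With the shift of each library divided out, the median ratio of highest to lowest value was 1.80 in place of 2.01, the number of members within 1.5 was 42 in place of 6, and the number within 2 was 193 in place of 143. The shift was taken from the members themselves, so dividing it out favours a narrower spread and is no separate evidence of a common part. The limit on the ratio was applied before this step, so the largest ratio was free to rise, and it became 3.34. The highest shift belonged to the library with the highest total FPKM, but S36 replicate 1, with a total only 1.04 times the lowest, had the next highest. In S43 replicate 3 the median shift was 0.35 in the 448 more variable unigenes of the same level. It was 0.20 there in the 22970 unigenes with at least 1 FPKM in every library. In S40 replicate 3 both of these sets stood at -0.28, while in S36 replicate 1 they stood at -0.11 and -0.20. The part of library size in the shift was not tested.

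Over the stages the members moved apart from the median of the unigenes present in every library. Among the 22970 unigenes with at least 1 FPKM in every library, the median shift was -0.20, -0.36 and -0.08 in the S36 libraries and 0.31, 0.35 and 0.34 in those of S45. Relative to these unigenes the members were higher by 0.40, 0.22 and 0.21 at S36 and by 0.14 and 0.11 in S40 replicates 1 and 3. They were lower by a shift of -0.40, -0.49 and -0.49 at S45. The S43 libraries stood at 0.17, 0.04 and 0.11, and S40 replicate 2 stood at -0.12. The 448 more variable unigenes of the same level had shifts of -0.11, -0.29 and -0.11 at S36 and of 0.12, 0.12 and 0.12 at S45. At S45 these lay between the members and the 22970, as they did in S36 replicates 1 and 2, and in S36 replicate 3 they lay below both. The 70 unigenes with a lowest value of at least 1000 FPKM and a ratio of at most 2.5 were also lower at S45. Their shifts were 0.41, 0.002 and 0.17 at S36 and -0.13, -0.25 and -0.24 at S45. The members were chosen for evenness on these same values, so their distance from other unigenes describes the set and is not evidence about it.

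**Figure D5:**
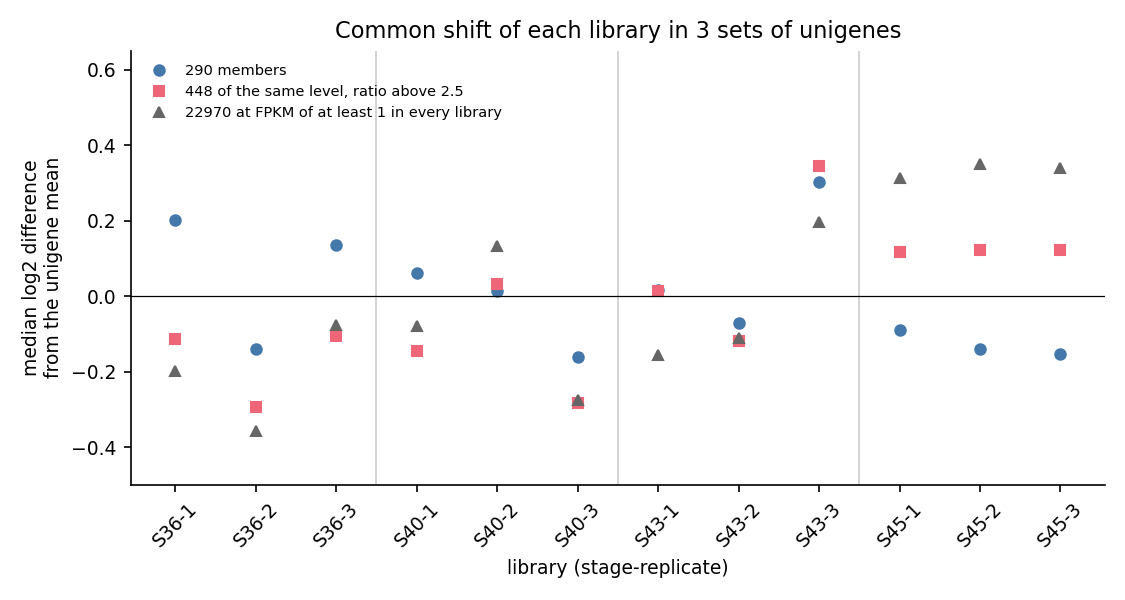
For each library (x axis), the median over unigenes of log2 FPKM minus the unigene's own mean over the 12 libraries (y axis), for the 290 members (circles), the 448 unigenes of the same level with a ratio above 2.5 (squares) and the 22970 unigenes with at least 1 FPKM in every library (triangles). The triangles lie above 0.3 in all S45 libraries and below 0 in all S36 libraries, while the circles are at -0.09 to -0.15 at S45.

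As a share of the library the members therefore took less at the end than at the start. They held 7.19%, 5.94% and 6.59% of total FPKM in the S36 libraries, 6.01%, 5.91% and 5.57% at S40, 5.98%, 5.36% and 5.53% at S43, and 4.52%, 4.93% and 4.96% at S45. The stage means were 6.57% ± 0.63 (SD, n = 3), 5.83% ± 0.23 (n = 3), 5.62% ± 0.32 (n = 3) and 4.73% ± 0.30 (n = 2), and every S45 library lay below every other library. The mean total FPKM was 1256180 at S36 and 1502940 at S45, so the same FPKM is a smaller share at S45. Since the members were chosen for even FPKM, these shares too only describe the set. The 100 most abundant unigenes of each library took 41.1% to 46.7% of total FPKM at S36 and 21.95% to 24.4% at S45, and their part in the members' shares was not tested.

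Whether a unigene counted as even therefore depended on the scale. After median-ratio scaling, which divides each library by its median ratio over the unigenes with at least 1 FPKM in every library, 262 unigenes met the 3 limits, and 177 of them were among the 290, which is 61.0% of the members and 67.6% of that list. After quantile normalization of the FPKM of these same unigenes, 309 met them and 206 were shared, 71.0% of the members and 66.7% of that list. With every library brought to the same total FPKM, a comparison added after seeing the data, 316 met them and 249 were shared, 85.9% and 78.8%. A core of 160 members met the limits under all 3 scalings and as deposited.

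The size of the small differences moved with the scale, and from S40 to S43 so did their direction. With equal totals the median log2 difference from S40 to S43 was -0.04, with 133 members higher and 157 lower, against 0.13 as deposited and 0.09 with median-ratio scaling, where 174 were higher and 116 lower. From S36 to S45 the members were lower on balance on each scale. With equal totals, 245 members were lower at S45 than at S36 and 45 higher, with a median log2 difference of -0.44, and with median-ratio scaling these were 269 and 21 with a median of -0.71. The median of all tested unigenes between these stages was 0.56 as deposited, 0.43 with equal totals and 0.28 with median-ratio scaling. Under median-ratio scaling limma called 8 members lower at S45 than at S36 and 0 higher, where 0.193% of all tested unigenes were lower. For limma, quantile normalization was applied to the log2(FPKM + 1) values of all tested unigenes, unlike for the limits above. Under it 3 members were lower and 0 higher, where 0.204% of all tested unigenes were lower. Of the 448 more variable unigenes of the same level, 38 were called lower under each of these scalings, and 2 and 3 were called higher. The members were chosen to be even as deposited, so these calls describe the set. The stage with the highest mean was S43 for the largest number of members as deposited, and S36 under both equal totals, for 156, and median-ratio scaling, for 170. The stage with the lowest mean was S45 in each, for 139 as deposited, 196 with equal totals and 239 with median-ratio scaling.

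How far the libraries of a stage spread from each other differed between stages. The SD of the log2 ratio between a pair of libraries, taken over the 290 members, was 0.29 to 0.32 for the pairs of S36, 0.25 to 0.30 for those of S40, 0.44 to 0.46 for those of S43 and 0.25 at most for those of S45. Pairs from different stages, leaving out the close pair, ran from 0.27 to 0.51 with a median of 0.44, so the pairs of S43 lay in the upper part of that range. S43 replicate 3 was nearer to S45 replicate 1, with 0.31, than to S43 replicates 1 and 2, with 0.46 and 0.44. S43 replicate 1 was nearest to S40 replicate 2, with 0.40. All S40 and S45 libraries were nearer to it, with 0.40 to 0.44, than S43 replicates 2 and 3, with 0.46 each. At least 1 FPKM was reached by 135286 unigenes in S43 replicate 3 and 140066 in S45 replicate 1, against 68062 and 78159 in S43 replicates 1 and 2. The cause was not tested. S45 replicates 2 and 3 had an SD of 0.08, and S36 replicate 3 and S40 replicate 1 one of 0.12. Between those 2 the members moved less than in any pair of replicates other than that of S45.

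All 290 members carried numbers from Cluster-199519, which holds 224984 of the unigenes among 221242 clusters. This is no mark of the set, since all 827 unigenes with at least 50 FPKM in every library did, and so did 22923 of the 22970 with at least 1 FPKM in every library. Within the cluster, numbers run to 224983, and the members lay between 97447 and 142150 with quartiles at 117843 and 122012. The 448 more variable unigenes of their level had quartiles at 118392 and 122555, and the 22923 at 103780 and 135436. The narrow band of numbers was therefore shared by abundant unigenes whether they were even or not. How the assembly assigned its numbers is not given in the sources used here.

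Some members kept a nearly constant ratio to each other through all 12 libraries. Of the 41905 pairs that 290 members form, 28 had an SD of the log2 ratio under 0.1, and 35 members took part in such pairs, against a median SD of 0.38 over all pairs. These pairs were chosen after their values were seen. The limit on the ratio and the shifts common to members favour a small SD. Pairs in other sets of unigenes were not examined, so these pairs only describe the set. Cluster-199519.123857 had 327, 251 and 312 FPKM at S36, 294, 279 and 276 at S40, 245, 277 and 283 at S43, and 213, 179.7 and 181 at S45. Cluster-199519.111718 had 165, 129 and 166, then 154, 134 and 136, then 132, 144 and 142, and then 107, 94.4 and 96.7 FPKM in the same libraries. The former stood between 1.86 and 2.08 times the latter in every library, while each of them ranged over 1.82-fold and 1.76-fold.

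The pair Cluster-199519.119845 and Cluster-199519.121690 was the next closest, with ratios from 1.14 to 1.28 around a median of 1.22 while their own values ranged over 1.94-fold and 1.86-fold. Cluster-199519.119506 stood at 1.89 to 2.09 times Cluster-199519.119535, and Cluster-199519.116005 at 1.00 to 1.16 times Cluster-199519.119019. Cluster-199519.120575, among the 4 highest members, stood at 1.41 to 1.65 times Cluster-199519.120608. Near-identical copies in an assembly can share reads. Whether these pairs are isoforms, fragments of 1 transcript or separate genes was not tested, so they are not counted as independent. Their shared cluster links no pair in particular, since all 290 members carry it.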

How the data were processed

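RNA selected with poly-T beads was sequenced from both ends (Illumina), per the labels' protocols. The table used here, deposited by the authors, holds FPKM values with 2 decimals, a unit that the labels name, and a companion sequence file was not used. Assembly, alignment and counting tools: not given in the sources used here. The members and the lists were chosen with earlier results of these data known. Stage and replicate came from the sample titles.

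Unigenes with at least 1 FPKM in at least 3 of 12 libraries, 123813 in all, were tested with limma 3.58.1 in R 4.3.3 (data.table, version 1.17.8) on log2(FPKM + 1), with no term but stage and with a mean-expression trend. Fold changes on this scale understate those of low unigenes. Calls are at a Benjamini-Hochberg adjusted p under 0.05 over all tested unigenes with no fold limit. S45 replicates 2 and 3 had a robust SD of log2 ratios of 0.029 at 1000 FPKM or more, where noise scaled from low unigenes gives 0.025, so their mean was 1 of 11 samples. Depth is unknown, which leaves precision to the replicates. The step was checked on simulated data. Python 3.11.15 with numpy 2.4.6, pandas 2.3.3 and matplotlib 3.10.9 was used for the rest.

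Unigenes named by rule were the 6 with the lowest ratio, the 4 with the highest mean and the 2 on either side of each limit. The rule also asked for the highest members outside the largest cluster and for those called between S36 and S45, and there were 0 of each. Alternatives were other limits and scalings, a pseudocount of 0.1, other filters, eBayes without trend, 12 separate libraries, the replicate number as a block and each library left out.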

Additional observations from a re-analysis of the deposited data

How the results depend on the processing

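The number of members was 143 with a ratio of 2, 409 with a ratio of 3, 448 with a lowest FPKM of 30 and 154 with one of 100. Leaving out 1 library gave 292 to 348. Leaving out S36 replicate 3 together with S40 replicate 1 gave 303, and S43 replicate 3 together with S45 replicate 1 gave 371, both added after seeing the data. The cause of the last was not tested, apart from the smaller number of libraries that had to meet the limits. Members differing among stages by limma were 0 in 21 of 23 alternatives, 7 under quantile normalization and 1 with 12 separate libraries. Members called between S36 and S45 were 8 under median-ratio scaling, 3 under quantile normalization and 3 with 12 separate libraries, and 0 to 3 with 1 library left out, the 3 coming without S43 replicate 3. All of the calls between S36 and S45 were lower at S45, and the cause was not tested. In the same settings 0.193% to 0.531% of all tested unigenes were called lower, as were 38 to 53 of the 448 more variable unigenes of the same level. In the 3 comparisons of consecutive stages limma called 0 members in all 23 alternatives each. A log2 difference of at least 1 as a further condition could only leave 0, since the main fit called 0 members in each comparison without it.

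With the replicate number as a block, in the fit of 12 separate libraries, 0 members differed among stages and 0 were called in each comparison, against 1 and 3 without the block. Of 18 pairs of libraries with the same number, 1 had a correlation of deviations over 0.1, and of 36 pairs with different numbers 7 did. With 3 libraries per stage these correlations cannot decide whether the number pairs the samples. Over the 18 named members and these alternatives, the S45 against S36 difference kept its direction and its side of the threshold in 387 of 414 values. It changed sign with neither value passing in 23 and passed in 4, all 4 in Cluster-199519.121297.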

Other observations

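Evenness was more common among abundant unigenes. A ratio of highest to lowest FPKM of at most 2.5 was met by 6.02% of the 9657 unigenes with a mean FPKM of 10 to 30, by 12.5% of the 3207 from 30 to 100, by 20.1% of the 750 from 100 to 300, by 29.8% of the 198 from 300 to 1000 and by 60.1% of the 138 at 1000 or more. In the lowest of these classes 13.4% of the unigenes were listed at 0 in at least 1 library, against 0.725% in the highest. Above the ceiling of the members, 70 of the 89 unigenes with a lowest value of at least 1000 FPKM kept within the same ratio.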
